A study of Arabidopsis thaliana with 24 samples.

Results

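DEAD-box RNA helicases are the largest class of enzymes that remodel RNA with ATP, and RH27, the gene AT5G65900 that is mutated in this study, is one of them. The family was taken as 54 listed AGI loci, eIF4A included, out of the 33341 loci in the count files of 12 mRNA libraries. The list rests on family membership. RH27 is named by the labels. A further set of members carries a name in RefSeq's gene table, which brings the named members to 24. The other 30 are given here by locus alone, with no role beyond a planned group.

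The groups compared, each with 3 libraries, were these Arabidopsis thaliana tissues: root tips of rh27-2, root tips of the Col-0 wild type (WT), shoot apices of rh27-2 and shoot apices of WT. All seedlings were 5 days past germination and had grown on Murashige and Skoog plates with sucrose under long days, with no other treatment. The labels do not describe the nature of the rh27-2 allele, the number of plants behind a library, or whether replicates came from separate cultures. The p-values therefore speak only of how these samples vary. Small RNA libraries of the same groups were not used here.

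DEAD-box proteins share a helicase core that binds RNA and ATP and locally opens short duplexes or displaces proteins. Family members act at almost every step of RNA life: ribosome assembly in the nucleolus, splicing, export of mRNA from the nucleus, translation initiation, mRNA decay, and the maturation of organelle transcripts. In plants a group of nuclear-encoded members is imported into plastids and mitochondria, where they serve intron splicing and ribosome assembly.

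The mRNA libraries held 15603992 to 20380109 counts each, on 21650 to 22788 detected loci. Levels are given as CPM, the count of a locus relative to its library's total, scaled by TMM over all 12 libraries, and differences as log2 ratios from edgeR's quasi-likelihood test with its standard error (SE). A locus was called higher or lower at a Benjamini-Hochberg adjusted p at or under 0.05 over all loci tested. The first principal component separated the genotypes in both organs and carried 86.5% of the variance in root tips and 71.7% in shoot apices. Replicates lay farther apart in the shoot: the chi-square per degree of freedom of replicate pairs was 3.78 to 6.94 in root tips and 9.82 to 54.1 in shoot apices. On the second shoot component, which carried 11.3%, replicate 1 stood apart in both genotypes, at 44.2 in rh27-2 against -7.10 and -28.5 for the other rh27-2 libraries, and at 31.4 in WT against -19.1 and -20.9. Levels are compared within a locus and never between loci, because transcript lengths were not used.

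Markers of the 2 organs fitted the labels in part. Root cap and root hair markers summed to under 1 CPM in every shoot library. CLV3, WUS and YAB1 of the shoot apex list were at 0 in WT root tips. The stem cell niche list was less distinct, at 91.3 to 100.3 CPM in WT shoot apices and 139 to 159.7 CPM in WT root tips. Of its 5 markers, 3 were called higher and 1 lower in WT root tips than in WT shoot apices. The shoot apex list moved with the genotype in both organs. Its 5 markers summed to 11.97 to 15.53 CPM in rh27-2 root tips and 2.63 to 4.23 CPM in WT root tips. None was at 0 in rh27-2 root tips, and the 1 tested there was called higher. In shoot apices the list summed to 202 to 255 CPM in rh27-2 and 124 to 153 CPM in WT. Of 3 tested there, 2 were called higher and 1 lower. Cell-type markers also moved with the genotype. Root hair markers summed to 106 to 108 CPM in rh27-2 root tips and 233 to 271 CPM in WT root tips, and all 3 were called lower. Endodermis markers summed to 230.2 to 268 CPM in rh27-2 root tips and 532 to 558 CPM in WT root tips, again with all 3 lower. All 3 xylem markers were lower too, at 275 to 293 CPM in rh27-2 root tips and 379.8 to 452 CPM in WT root tips, and so were 2 of 3 phloem markers, at 41.5 to 45.9 CPM in rh27-2 and 70.2 to 97.9 CPM in WT. Of 5 stem cell niche markers 3 were called higher, and the list summed to 171 to 187 CPM in rh27-2 root tips and 139 to 159.7 CPM in WT root tips. The sums of dividing-cell markers overlapped, at 171 to 197 CPM in rh27-2 root tips and 152 to 177 CPM in WT root tips, with 2 of 6 called higher. In such bulk samples, fewer cells of a type and less RNA per cell cannot be told apart, and the part of these shifts in the results below was not tested.

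RH27 itself was lower in rh27-2 root tips. It had 12.6, 14.9 and 13.7 CPM in rh27-2 root tips, against 25.5, 24.5 and 21.8 CPM in WT root tips. The root groups did not overlap, and the log2 ratio was -0.80 (SE 0.094, edgeR adjusted p = 8.47e-06). In shoot apices it had 25.8, 26.8 and 24.0 CPM in rh27-2, against 34.6, 26.8 and 30.8 CPM in WT. The highest rh27-2 shoot library and the lowest WT one were almost equal, and the ratio of -0.33 (SE 0.12) was not called (edgeR adjusted p = 0.0712). That value passed the threshold without WT shoot replicate 2 (-0.43, adjusted p = 0.0411) and with total-count scaling (-0.41, adjusted p = 0.0371). Reads of RH27 were counted in every mutant library, and counts per locus cannot show which part of the transcript they came from. In RefSeq's table RH27 overlaps its neighbour AT5G65910, which averaged 48.6 CPM in rh27-2 root tips and 65.4 CPM in WT root tips (log2 ratio -0.43), and the strand used in counting is not given.

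Across the family, most members were higher in mutant root tips and fewer were called in mutant shoot apices. Of 52 members tested in root tips, 36 were called higher and 7 lower in rh27-2, where 31.3% of all 19443 tested loci were called higher and 30.9% lower. The median log2 ratio of the tested members was 0.35, beside 0.01 over all loci, and it was the same with AT1G71370 set at its bound. Of 51 members tested in shoot apices, 3 were called higher and 10 lower, where 21.1% of 18972 loci were called higher and 19.8% lower. The shoot median was -0.06, beside -0.02 over all loci. A fit over all 12 libraries called 10 members higher and 13 lower in shoot apices, and leaving out rh27-2 shoot replicate 1 gave 2 higher and 8 lower. With the replicate number as a block, 3 were called higher and 8 lower there. The members AT3G09620 and AT4G33370 had almost no counts and were tested nowhere, and AT1G71370 was not tested in shoot apices. Members that passed the filter through one group alone, AT1G71280 and AT1G71370, had to differ, so no weight is placed on their share of these counts.

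**Figure D1:**
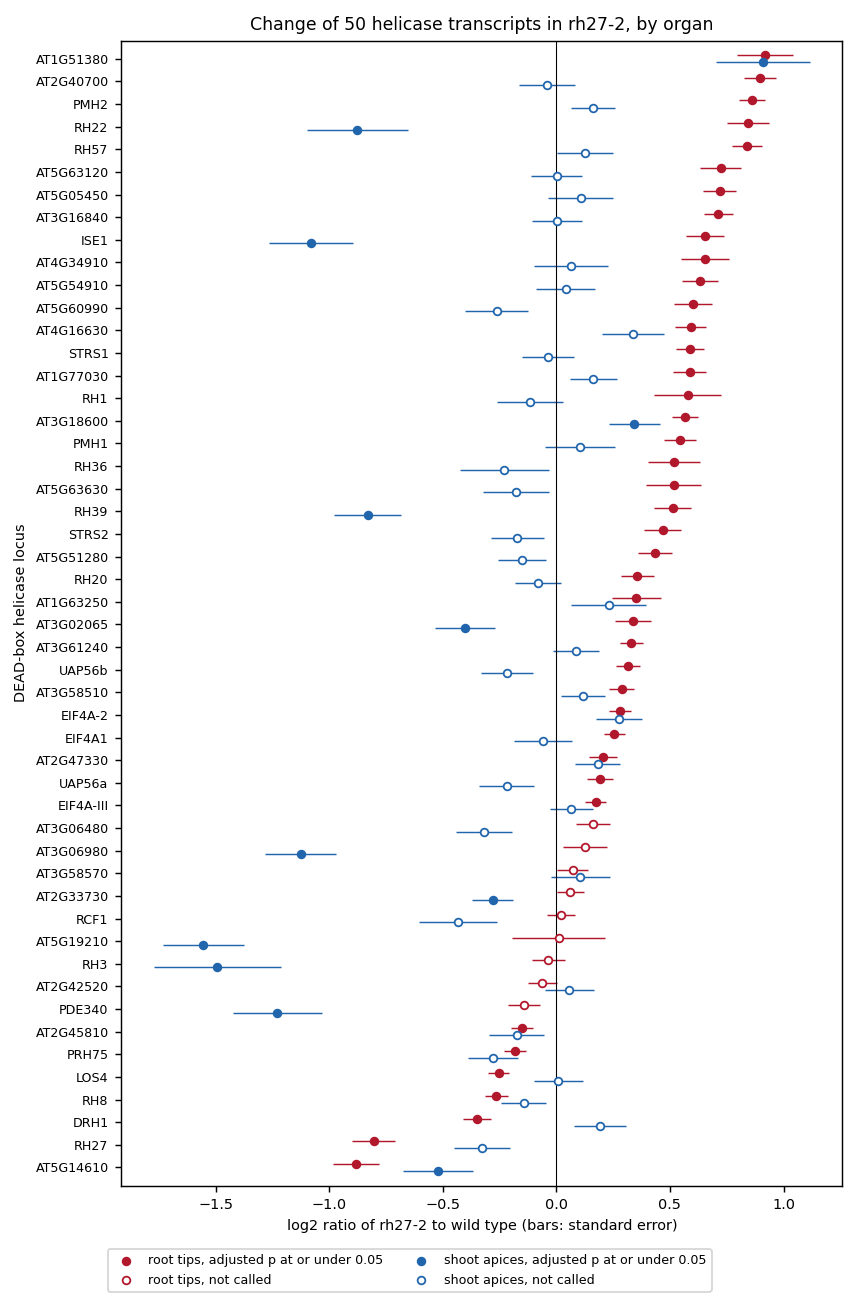
Log2 ratio of rh27-2 to WT on the horizontal axis for 50 helicase loci, one per row, ordered by the root value. Red marks root tips, blue marks shoot apices, filled points are called, and bars are standard errors. AT1G71280 and AT1G71370, whose WT counts are near 0, are left out. Most red points lie right of 0, up to 0.92, and the blue points reach -1.55.

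Of the 3 members named here for nucleolar and rRNA processing roles, 2 were called higher in root tips and 1 lower. A wider group was planned by yeast homologues that act on pre-rRNA. It also held STRS1, RH1 and loci without a name. PRH75 was its only member called lower in root tips, and the others were called higher, where 31.3% of all loci were. Of these, AT1G71280 and AT1G71370 had to differ. RH57, a helicase of pre-rRNA processing, had 50.3, 49.8 and 52.2 CPM in rh27-2 root tips, against 27.0, 30.2 and 27.7 CPM in WT root tips. Its groups lay far apart, at a log2 ratio of 0.84 (SE 0.065, edgeR adjusted p = 2.21e-07). RH36, which is needed for processing of 18S rRNA precursors, had 22.1, 19.5 and 21.2 CPM in rh27-2 root tips, against 14.2, 17.2 and 12.4 CPM in WT root tips, again without overlap (0.52, adjusted p = 0.00138). PRH75, a nuclear helicase, went the other way: it had 359.8, 362 and 382 CPM in rh27-2 root tips, against 403, 429 and 416 CPM in WT root tips (-0.18, adjusted p = 0.00522), and it lost its call with total-count scaling (adjusted p = 0.129) and in the fit over all 12 libraries (0.0625). None of these 3 was called in shoot apices, where their ratios were 0.13 for RH57, -0.23 for RH36 and -0.28 for PRH75. The shoot value of PRH75 was called with total-count scaling (-0.37, adjusted p = 0.0342), with DESeq2 (-0.27, 0.0304) and in the fit over all 12 libraries (-0.22, 0.0235).

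Named nucleolar factors outside the family were higher in root tips as well. Listed partners in rRNA processing without a name here were left out. All 13 with a name were called higher in rh27-2 root tips, where 31.3% of all loci were. Their median log2 ratio was 0.74, beside 0.01 over all loci. Examples are the nucleolin NUC2 (79.3 ± 5.49 CPM in rh27-2 and 2.97 ± 0.831 CPM in WT, SD, n = 3 each, log2 ratio 4.76), the ribosome assembly factors PUM24 (0.98) and RRP5 (0.86), and NOP56 of the box C/D particle (0.88). In shoot apices 2 of the 13 were called higher, NUC2 (4.17) and the fibrillarin FIB2 (0.37), where 21.1% of all loci were.

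AT3G18600, the direct neighbour of NUC2, was called higher in both organs. It had 111, 119.8 and 125 CPM in rh27-2 root tips, against 81.6, 82.3 and 75.7 CPM in WT root tips (log2 ratio 0.57, SE 0.057, edgeR adjusted p = 2.31e-06). In shoot apices it had 86.6, 103 and 84.5 CPM in rh27-2, against 69.5, 70.5 and 67.5 CPM in WT (0.34, SE 0.11, adjusted p = 0.043). The genotypes did not overlap in either organ. The shoot call was lost when any one of the 6 shoot libraries was left out (adjusted p = 0.0593 to 0.164), with total-count scaling (0.104) and with no filter on low counts (0.0662). RefSeq's table shows no overlap between the 2 loci.

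A pair of loci, AT1G71280 and AT1G71370, for which the table gives no name, had counts near 0 in WT. AT1G71280 had 6.77, 8.06 and 8.68 CPM in rh27-2 root tips, against 0.732, 0.0624 and 0.907 CPM in WT root tips, which is 462 counts against 31, a ratio of 13.4 with an exact 95% counting interval of 9.34 to 20.02. In shoot apices it had 2.46, 2.38 and 2.39 CPM in rh27-2, against 0, 0.204 and 0.0546 CPM in WT, or 114 counts against 5, a ratio of 26.2 with an interval of 10.9 to 82.2. Every mutant library exceeded every WT library of its organ. AT1G71370 had 22, 28 and 21 counts in rh27-2 root tips and 0 in all 3 WT root libraries, which is at least 21.3-fold higher against a floor of 3 counts over the group. The exact 95% lower limit of that ratio, which also covers the counting error of the mutant count, is 16.9. In shoot apices AT1G71370 had 20 counts in rh27-2 and 2 in WT, a ratio of 11.5 with an interval of 2.79 to 101. These limits cover counting error only. Reads that these loci may share with related members cannot be told apart from the counts.

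**Figure D2:**
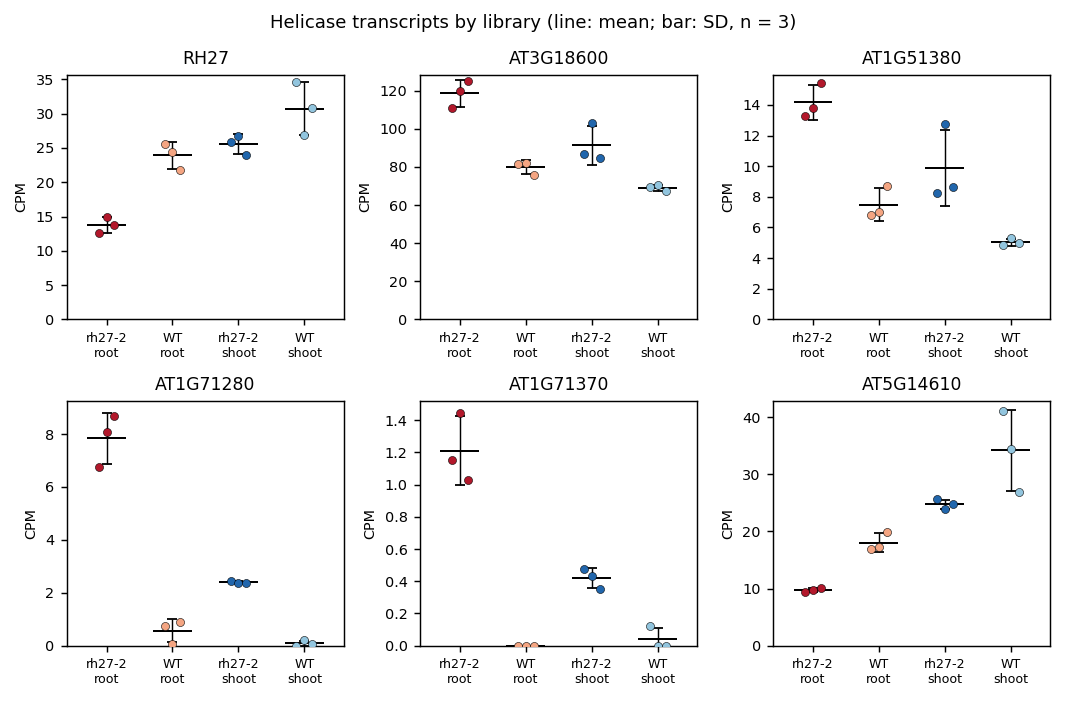
CPM on the vertical axis in each of the 12 libraries for 6 helicase loci, by group on the horizontal axis, with the mean as a line and the SD as a bar (n = 3). RH27 is lowest in rh27-2 root tips at 12.6 to 14.9 CPM, while AT1G71280 and AT1G71370 are above WT in every mutant library of both organs.

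AT1G51380 rose in both organs from moderate counts. It had 13.3, 13.8 and 15.4 CPM in rh27-2 root tips, against 6.78, 6.99 and 8.71 CPM in WT root tips (log2 ratio 0.92, SE 0.12, edgeR adjusted p = 2.68e-05). In shoot apices it had 8.26, 12.7 and 8.63 CPM in rh27-2, against 4.86, 5.30 and 4.97 CPM in WT (0.91, SE 0.21, adjusted p = 0.0129). All mutant libraries were above all WT libraries of the same organ. AT5G14610 was the one member called lower in both. It had 9.44, 9.82 and 10.1 CPM in rh27-2 root tips, against 16.9, 17.3 and 19.9 CPM in WT root tips (-0.88, SE 0.10, adjusted p = 6.37e-06). In shoot apices it had 25.6, 24.0 and 24.7 CPM in rh27-2, against 41.1, 34.5 and 26.9 CPM in WT (-0.52, SE 0.15, adjusted p = 0.0321). That shoot call was lost in 5 of 6 fits with a library left out, all but the one without WT shoot replicate 3, with adjusted p up to 0.110.

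Other members with large root rises had no such rise in shoot apices. AT2G40700 had 42.4, 45.6 and 48.1 CPM in rh27-2 root tips, against 24.8, 24.8 and 23.3 CPM in WT root tips (log2 ratio 0.89, edgeR adjusted p = 2.36e-07), while its shoot ratio was -0.04. AT5G63120 had 34.6, 41.0 and 38.0 CPM in rh27-2 root tips, against 25.4, 20.4 and 22.6 CPM in WT root tips (0.72, adjusted p = 1.56e-05). AT5G05450 had 54, 54.4 and 56.6 CPM in rh27-2 root tips, against 37.0, 31.9 and 30.8 CPM in WT root tips (0.72, adjusted p = 2.56e-06). None of these root groups overlapped. AT3G16840 had 77.3, 78.2 and 88.8 CPM in rh27-2 root tips, against 48.8, 51.4 and 48.4 CPM in WT root tips (0.71, adjusted p = 8.11e-07). The shoot ratios of the last 3 were 0.00, 0.11 and 0.00, in the order named. In all, 17 of the 36 root rises and 2 of the 7 root falls had an absolute log2 ratio of at least 0.58. The 17 include AT1G71280 and AT1G71370, which had to differ. Such shares were not taken over all loci, so these counts are not read as a trait of the family. The call of AT1G63250 (0.35, adjusted p = 0.0123) was lost without rh27-2 root replicate 2 (0.26, adjusted p = 0.0691) and in the fit over all 12 libraries (0.35, 0.0607).

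Of the named helicases of plastids and mitochondria, RH22, RH39 and ISE1 were called higher in mutant root tips and lower in mutant shoot apices. Of all 6 named organelle members, 5 were called higher in rh27-2 root tips and 0 lower, where 31.3% of all loci were higher, and in shoot apices 4 were called lower and 0 higher, where 19.8% of all loci were lower. The organelle group as planned also held AT3G06980 and AT5G19210, which carry no name here and are not in these counts. Both were lower in shoot apices and not called in root tips. The same held for PDE340, a gene named for a pigment-defective mutant and planned in another group. Among the 6, the 4 shoot falls were RH3, RH22, RH39 and ISE1. RH3 serves plastid group II introns and ribosome assembly, RH22 the large plastid ribosomal subunit and RH39 plastid 23S rRNA. ISE1 is a mitochondrial helicase whose loss alters plasmodesmata.

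RH3 had 344, 223 and 179 CPM in rh27-2 shoot apices, against 853, 616 and 551 CPM in WT shoot apices (log2 ratio -1.49, SE 0.28, edgeR adjusted p = 0.0068). The highest mutant library stayed well under the lowest WT library. In root tips RH3 had 43.7, 49.1 and 45.4 CPM in rh27-2, against 49.5, 48.8 and 42.8 CPM in WT, and those groups overlapped (-0.04, adjusted p = 0.69).

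ISE1 had 43.3, 42.2 and 33.1 CPM in rh27-2 shoot apices, against 98.0, 82.2 and 61.5 CPM in WT shoot apices (-1.08, SE 0.19, edgeR adjusted p = 0.00505). In root tips ISE1 had 21.5, 21.5 and 20.5 CPM in rh27-2, against 13.3, 13.1 and 13.8 CPM in WT (0.65, adjusted p = 1.68e-05). Mutant libraries were therefore all lower in the shoot and all higher in the root. RH39 had 59.7, 62.7 and 48.2 CPM in rh27-2 shoot apices, against 114, 93.2 and 85.1 CPM in WT shoot apices (-0.83, SE 0.15, adjusted p = 0.00548). In root tips RH39 had 32.2, 35.5 and 39.6 CPM in rh27-2, against 25.4, 25.3 and 24.4 CPM in WT (0.51, adjusted p = 0.000117), with the same separation as ISE1.

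RH22 had 32.2, 41.9 and 33.4 CPM in rh27-2 shoot apices, against 77.6, 70.0 and 42.6 CPM in WT shoot apices (-0.88, SE 0.22, edgeR adjusted p = 0.0194). WT shoot replicate 3 lay just above the highest mutant library. The shoot call of RH22 was lost without WT shoot replicate 1, without WT shoot replicate 2 and without rh27-2 shoot replicate 3, with adjusted p up to 0.0653 and a ratio between -1.11 and -0.74 over all 6 such fits. In root tips RH22 had 25.1, 30.3 and 30.6 CPM in rh27-2, against 15.4, 16.8 and 15.7 CPM in WT (0.84, SE 0.092, adjusted p = 4.62e-06), with no overlap. RH22 overlaps AT1G60000 in RefSeq's table, a locus with a shoot log2 ratio of -1.79.

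AT5G19210, PDE340 and AT3G06980 had wide gaps between the genotypes in the shoot. AT5G19210 had 5.53, 4.66 and 4.0 CPM in rh27-2 shoot apices, against 13.1, 12.1 and 14.8 CPM in WT shoot apices (-1.55, SE 0.18, edgeR adjusted p = 0.00137). PDE340 had 56.6, 77.3 and 55.6 CPM in rh27-2 shoot apices, against 166, 152 and 108 CPM in WT shoot apices (-1.23, SE 0.19, adjusted p = 0.00384). AT3G06980 had 61.0, 55.2 and 42.7 CPM in rh27-2 shoot apices, against 118, 98.6 and 117 CPM in WT shoot apices (-1.13, SE 0.16, adjusted p = 0.00249). The genotypes were apart at all 3. Their root ratios were 0.01 for AT5G19210, -0.14 for PDE340 and 0.13 for AT3G06980. STRS2, the gene next to PDE340, had a shoot ratio of -0.17 (adjusted p = 0.268).

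The mitochondrial splicing helicases PMH1 and PMH2 were higher in mutant root tips and not called in the shoot. PMH2 had 68.3, 66.8 and 69.9 CPM in rh27-2 root tips, against 37.1, 39.3 and 36.1 CPM in WT root tips (0.86, SE 0.059, edgeR adjusted p = 6.52e-08). In shoot apices PMH2 had 62.2, 69.8 and 61.6 CPM in rh27-2, against 56.1, 57.2 and 52.6 CPM in WT (0.16, adjusted p = 0.225). Those shoot groups did not overlap, and the edgeR fit over all 12 libraries called PMH2 higher there (0.22, adjusted p = 0.0255). PMH1 rose by 0.54 in root tips (adjusted p = 2.72e-05) and its shoot ratio was 0.10 (adjusted p = 0.619).

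Markers of green leaf tissue were lower in part in mutant shoot apices. They summed to 3928 to 12890.1 CPM in rh27-2 shoot apices and 10724 to 17645 CPM in WT shoot apices, and these sums overlapped. Of 5 markers, 3 were called lower, where 19.8% of all loci were. None was called higher, and none was at 0 in any group. Their part in these shoot falls was not tested. Dividing-cell markers summed to 159 to 243 CPM in rh27-2 shoot apices and 221 to 435 CPM in WT shoot apices. Those sums overlapped too, with 3 of 6 called lower. All 3 xylem markers were called higher in rh27-2 shoot apices, at sums of 219.8 to 278 CPM, against 67.5 to 73.1 CPM in WT. Of 3 phloem markers 2 were called higher there, at sums of 129 to 171 CPM in rh27-2 shoot apices and 51.5 to 74.9 CPM in WT shoot apices.

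**Figure D3:**
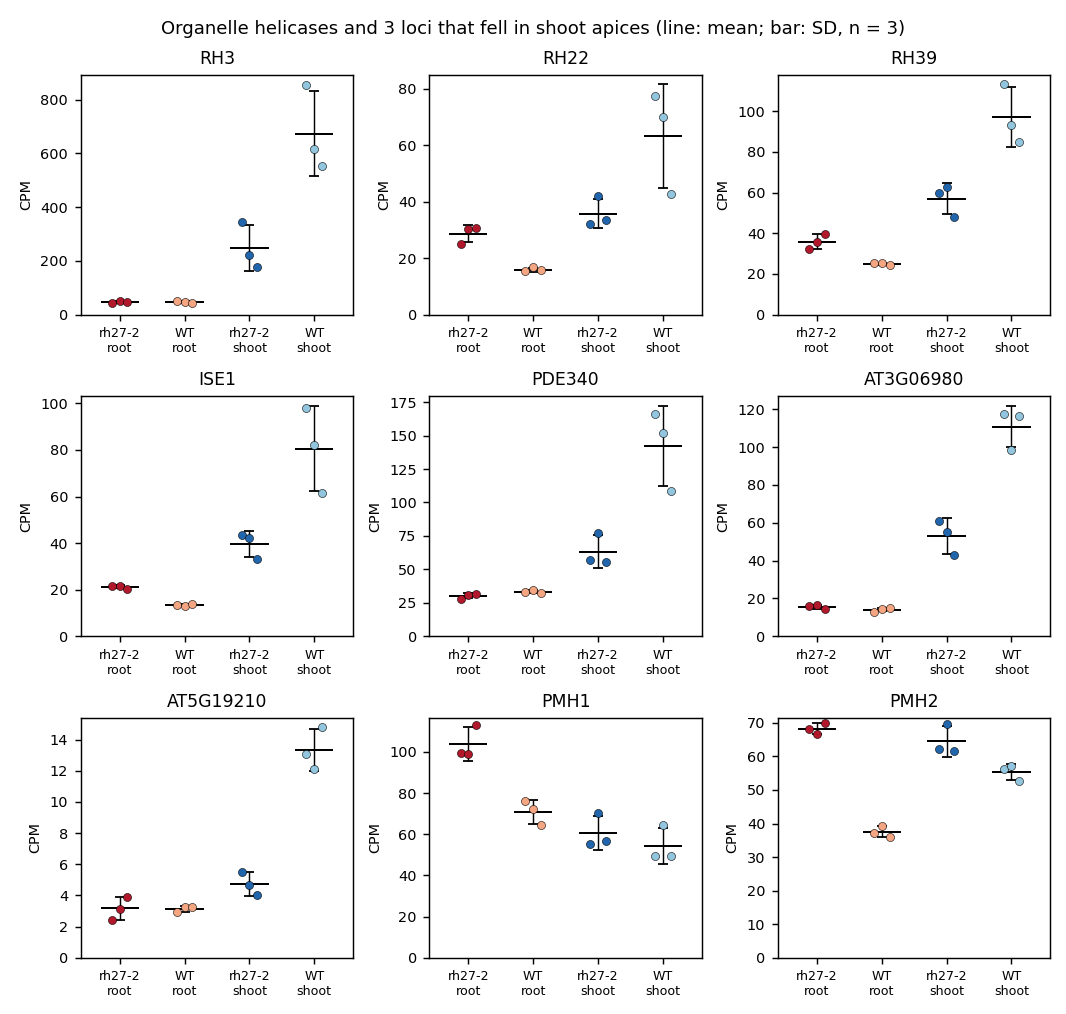
CPM on the vertical axis in each library, by group on the horizontal axis, for the 6 named organelle helicases and AT3G06980, AT5G19210 and PDE340, with the mean as a line and the SD as a bar (n = 3). RH3 reaches 344 CPM at most in rh27-2 shoot apices and 551 CPM at least in WT shoot apices. PMH1 overlaps between the genotypes in shoot apices, and PMH2 is higher in every rh27-2 shoot library than in any WT one.

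The remaining 2 shoot falls were small. AT2G33730 had 82.1, 85.4 and 84.6 CPM in rh27-2 shoot apices, against 99.3, 99.2 and 95.3 CPM in WT shoot apices (-0.28, edgeR adjusted p = 0.041). AT3G02065 had 22.1, 18.5 and 17.8 CPM in rh27-2 shoot apices, against 23.2, 24.6 and 26.2 CPM in WT shoot apices (-0.40, adjusted p = 0.0471). Neither overlapped, yet neither call held with the replicate number as a block (adjusted p = 0.0571 for AT2G33730 and 0.0594 for AT3G02065) or with no filter on low counts (0.0548 and 0.0511, in the same order). AT2G33730 lost its call in 5 of 6 fits with a library left out, all but the one without WT shoot replicate 3, with adjusted p up to 0.127. AT3G02065 lost it in 4 of 6, those without WT shoot replicate 2 or 3 and without rh27-2 shoot replicate 2 or 3, with adjusted p up to 0.155.

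Members of translation and mRNA export changed by small amounts. Each of 3 eIF4A members, EIF4A1 and EIF4A-2 of the cap-binding complex and EIF4A-III of the exon junction complex, was called higher in root tips and none in shoot apices. EIF4A1 had 615, 585 and 611 CPM in rh27-2 root tips, against 519, 504 and 489 CPM in WT root tips (0.26, SE 0.048, edgeR adjusted p = 0.00047). The root ratios were 0.28 for EIF4A-2 and 0.17 for EIF4A-III. EIF4A-2 had a shoot ratio of 0.28 that was not called (adjusted p = 0.0625). DESeq2 called it higher (adjusted p = 0.00618), and so did the edgeR fit over all 12 libraries (0.34, adjusted p = 0.00133). Of their partners, EIF4E (0.55), EIF4G (0.23) and EIFISO4G2 (0.71) were higher among 7 cap-binding factors in root tips, where 31.3% of all loci were. The exon junction factors MAGO (0.24) and Y14 (0.20) were higher and PYM (-0.30) lower there.

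For mRNA export, the UAP56b and UAP56a transcripts were higher in root tips (0.32 and 0.19, in that order; the call of UAP56a was lost in the fit over all 12 libraries, at 0.20 and an adjusted p of 0.088) and LOS4, which exports poly(A) RNA, was lower. LOS4 had 105, 103 and 109 CPM in rh27-2 root tips, against 126, 126 and 126 CPM in WT root tips (-0.25, SE 0.046, edgeR adjusted p = 0.000379). None of the 3 export members was called in shoot apices. Among the other named members, DRH1 had 291, 264 and 304 CPM in rh27-2 root tips, against 342, 367 and 383 CPM in WT root tips (-0.35, adjusted p = 0.000284). RH8 had 64.2, 66.6 and 63.7 CPM in rh27-2 root tips, against 78.1, 77.9 and 76.7 CPM in WT root tips (-0.26, adjusted p = 0.000549). The stress response helicases STRS1 (0.59) and STRS2 (0.47), and RH1 (0.58) and RH20 (0.36), rose in root tips. RCF1, a helicase of splicing in the cold, was not called in either organ (0.02 in root tips and -0.43 in shoot apices, adjusted p = 0.0814). Its shoot value was called with total-count scaling (-0.52, adjusted p = 0.0461), in the fit over all 12 libraries (-0.37, 0.027) and without WT shoot replicate 1 (0.0478). AT2G45810 was lower in root tips by a small margin (-0.15, adjusted p = 0.0148) and lost that call without WT root replicate 1 (adjusted p = 0.0519), with total-count scaling (0.294), with DESeq2 (0.0616) and in the fit over all 12 libraries (0.196).

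Helicases of other classes were counted in the same way. Of 12 named DEAH-box and Ski2-like helicases, 7 were called higher and 1 lower (PRP16, -0.28) in rh27-2 root tips, beside 31.3% and 30.9% of all loci. Their median was 0.29. Examples are EMB1507, a spliceosome helicase (0.51), and HEN2, which works with the nuclear exosome (0.49). In shoot apices none was higher and 2 were lower: ISE2, a plastid helicase (-1.17, edgeR adjusted p = 0.00763), and RID1 (-0.36, adjusted p = 0.0376), where 19.8% of all loci were lower. Of 12 pri-miRNA processing factors, 7 were higher and 2 lower in root tips, and in shoot apices none was higher and CBP20, ABH1, DDL and TGH were lower, against the same shares over all loci. Of 6 named decapping factors, VCS alone was called in root tips (-0.15), and none in shoot apices.

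Sums over the family weigh the most abundant members most. The 54 loci summed to 4266, 4279.9 and 4538 CPM in rh27-2 root tips, against 3792, 3844 and 3707 CPM in WT root tips. In shoot apices they summed to 4399, 4498 and 4242 CPM in rh27-2, against 5207, 4861 and 4816 CPM in WT. The sums were apart in both organs, and they are not a change of every group. RH3, at 344, 223 and 179 CPM in rh27-2 shoot apices and 853, 616 and 551 CPM in WT shoot apices, had the greatest part in the shoot difference. The eIF4A members summed to 1020.4 ± 34.5 CPM in rh27-2 shoot apices and 956 ± 14.1 CPM in WT shoot apices. The 3 named nucleolar members, PRH75 among them, summed to 439.6 ± 13.7 CPM in rh27-2 root tips and 459 ± 16.3 CPM in WT root tips. The 6 named organelle members alone summed to 506 ± 92.6 CPM in rh27-2 shoot apices and 1024 ± 205 CPM in WT shoot apices (SD, n = 3 each). No test was made on these sums.

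The difference between organs was tested directly, as the root log2 ratio of rh27-2 to WT minus the shoot one, in a fit over all 12 libraries. Of 52 members tested, 28 were called higher in that difference and 3 lower, where 21.4% of 20798 loci were called higher and 22.6% lower. The median over the members was 0.41, beside 0.06 over all loci. In 19 of the 28, the ratio was above 0 in root tips and below 0 in shoot apices, a share that was not taken over all loci. The greatest differences were those of ISE1 (1.68, edgeR adjusted p = 0.000137), RH22 (1.67), AT5G19210 (1.51), RH3 (1.41), RH39 (1.29), AT3G06980 (1.19) and PDE340 (1.03). Loci without a name also differed, among them AT2G40700 (0.88) and AT5G60990 (0.81), which was higher in root tips by 0.60 and had a shoot ratio of -0.26. Without rh27-2 shoot replicate 1 the counts were 24 higher and 3 lower.

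A set of 3 members differed the other way: DRH1 (-0.60), RH27 (-0.53, adjusted p = 0.0181) and LOS4 (-0.32). DRH1 had 425, 435 and 427 CPM in rh27-2 shoot apices, against 344, 371 and 366 CPM in WT shoot apices, a ratio of 0.19 that was not called (edgeR adjusted p = 0.213). The edgeR fit over all 12 libraries called DRH1 higher in shoot apices (0.25, adjusted p = 0.0195). All 3 of its mutant shoot libraries were the higher ones, while all 3 mutant root libraries were the lower ones. The difference depends on how libraries of both organs are scaled: total-count scaling moved the median over all loci by 0.23 and the share of calls that are higher to 67.5%, beside 48.7%, and then 37 members were higher and 1 lower. RH27 (-0.30, adjusted p = 0.145) and LOS4 (-0.08, adjusted p = 0.543) lost their calls with it. Leaving out single libraries ended the call of 7 of the 28, namely AT2G33730, AT1G77030, RH36, UAP56a, RH1, AT3G06480 and RH20, with adjusted p up to 0.113, and of LOS4 without WT root replicate 2, rh27-2 root replicate 2 or rh27-2 root replicate 3 (up to 0.0585).

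In WT, more helicases were lower in root tips than higher. Of 50 members tested, 9 were called higher and 23 lower in root tips than in shoot apices, where 36.3% of 19938 loci were called higher and 37.9% lower, and the median of -0.25 compares with -0.04 over all loci. The 5 largest falls were RH3 (-3.84), AT3G06980 (-2.98), ISE1 (-2.59), PDE340 (-2.10) and AT5G19210 (-2.09). The 5 largest rises were PRH75 (0.65), AT1G51380 (0.57), RH8 (0.49), LOS4 (0.42) and PMH1 (0.38). RH27 was lower in root tips by a small margin (-0.36, edgeR adjusted p = 0.0304), a call lost without WT root replicate 1, 2 or 3 and without WT shoot replicate 1 (adjusted p = 0.0545, 0.0677, 0.0989 and 0.0782, in that order). Among the rises, that of AT1G51380 was lost without WT root replicate 3 (up to 0.0693) and that of PMH1 without WT root replicate 1 or 2 or WT shoot replicate 1 or 3 (up to 0.101), and without WT root replicate 1 only 4 members were called higher.

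In rh27-2 the counts in both directions were closer. Of 52 members tested, 18 were called higher and 13 lower in root tips than in shoot apices, where 36.8% of 20288 loci were called higher and 36.2% lower, with a median of 0.05 beside 0.03 over all loci. Without rh27-2 shoot replicate 1 they were 20 and 14. The 5 largest falls were RH3 (-2.49), AT3G06980 (-1.84), AT5G14610 (-1.40), PDE340 (-1.12) and ISE1 (-0.96). RH27 followed closely (-0.95, SE 0.097, edgeR adjusted p = 7.85e-05). Apart from the pair of loci near 0 in WT, the rises were led by RH57 (0.80), followed by PMH1 (0.71), PRH75 (0.63), AT2G40700 (0.63) and RH1 (0.55). AT1G71280 (1.64) stood above them, at 7.86 CPM over the root group and 2.41 CPM over the shoot group. AT1G71370 (1.45) passed the filter through root tips alone, with 22, 28 and 21 counts there and 7, 8 and 5 in shoot apices. Its rise was therefore fixed in advance, and no weight is placed on its place among the 18. Of the 50 members tested in both genotypes, 37 had a greater root to shoot ratio in rh27-2 than in WT. That share was not taken over all loci, whose median was -0.04 in WT and 0.03 in rh27-2. It is therefore not read as a trait of the family. Total-count scaling moved the median over all loci by 0.33 in rh27-2 and the share of calls that are higher to 64.5%, beside 50.4%, and gave 37 higher and 8 lower members.

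**Figure D4:**
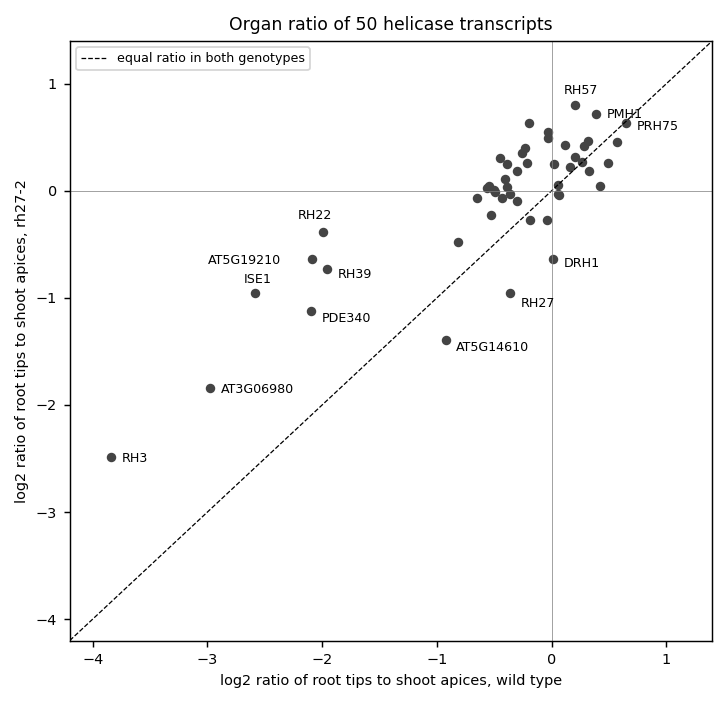
Log2 ratio of root tips to shoot apices in rh27-2 on the vertical axis and in WT on the horizontal axis for 50 helicase loci, one point each, with a dashed line where both are equal. Points above the line have the greater ratio in rh27-2, and their share was not taken over all loci. RH3 lies at -3.84 in WT and -2.49 in rh27-2, and RH27 and DRH1 lie under the line.

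Calls in both organs are listed here by member, and the share of all loci with such calls was not taken. Shoot apices had only 3 rises and 10 falls, which limits how many calls could meet. The 3 members called higher in both, AT3G18600, AT1G51380 and AT1G71280, are 3 of the 36 root rises and all 3 shoot rises, and the calls of AT1G71280 were fixed by the filter on low counts, which it passed through the mutant libraries alone. Another 4 of the 36 root rises, RH22, RH39, ISE1 and AT3G02065, were among the 10 shoot falls. Of the 7 root falls, AT5G14610 was also a shoot fall. A further 28 root rises and 6 root falls, RH27 included, had no call in shoot apices, which does not show that they were the same there. AT3G06480, RCF1, AT2G42520 and AT3G58570 were called in neither organ. AT3G06480 was called higher in root tips with total-count scaling (0.25, edgeR adjusted p = 0.0114) and without rh27-2 root replicate 1 (0.20, 0.0436), and lower in shoot apices with total-count scaling (-0.40, 0.0398) and in the fit over all 12 libraries (-0.26, 0.046).

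Library by library, the genotypes separated at most members in root tips. Of 52 members tested, 37 had every rh27-2 root library above every WT root library and 8 had every one below, where 34.6% of all tested loci were above and 33.5% below. In shoot apices 12 of 51 members were above and 15 below, where 30.5% of all tested loci were above and 24.4% below. Spread within a group could be larger in the shoot: RH3 ranged from 179 to 344 CPM over 3 mutant shoot libraries, and from 43.7 to 49.1 CPM over 3 mutant root libraries.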

How the data were processed

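Counts per locus were deposited by the authors, one table for each mRNA library. Per the submitters' processing notes, TopHat2, HTSeq, edgeR and Bowtie2 were named, with no versions or roles, and the build was TAIR10. The strand setting is not given in the sources used here. The 12 tables, with 33341 loci each, were analysed with edgeR 4.0.16 in R 4.3.3: filterByExpr at a count minimum of 10, scaling by TMM, robust quasi-likelihood fits on the groups compared, and Benjamini-Hochberg adjustment at 0.05. CPM levels use 1 TMM scaling over all 12 libraries, so their ratios differ slightly from fitted ones. Names came from RefSeq's table of TAIR10.1, and its coordinates were used only to find neighbours. In it, 20 of the 54 members overlap a neighbouring counted locus.

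Members and lists were chosen with earlier results of these data known. Role groups and partner lists are limited to loci given a name here from the table or the labels. Exceptions are the wider group by yeast homologues and the unnamed loci mentioned with the organelle group. Listed partners without such a name were left out of the counts and medians. Named were RH27, members with calls of at least 0.58 (absolute log2), the leading members of each role group, interaction and organ comparison, direct neighbours, and up to 4 genes of each partner list. Where a member, such as STRS2, RCF1 or RH20, or a marker gene is named outside that rule, it was chosen after its values were seen.

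Whether replicate numbers pair samples was checked by correlating deviations from the group means. In shoot apices same-numbered libraries gave 0.329, 0.259 and 0.117, and differently numbered ones -0.359 to 0.222. The numbers were taken to pair them there, though these ranges overlap and the labels state no pairing. The main shoot fit held no block, so its SEs and p-values do not use that pairing, and the block was an alternative. In root tips same-numbered libraries gave 0.0229, 0.00141 and -0.0175. All replicate pairs differed by more than sampling noise. The fit for root tips alone was tried on simulated counts with a fixed spread, so that trial does not bear on the other fits. DESeq2 1.42.0, RLE and total-count scaling, no filter, the block, a fit over all 12 libraries and leaving out each library were the alternatives.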

Additional observations from a re-analysis of the deposited data

Results flagged for a closer look

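The log2 ratio of rh27-2 to WT differed between root tips and shoot apices, by the interaction test in edgeR, for 31 members. The difference is root minus shoot, and these are values only, since no cause was tested. The values furthest from 0 were ISE1 1.68, RH22 1.67, AT5G19210 1.51, RH3 1.41, RH39 1.29, AT3G06980 1.19 and PDE340 1.03. The mitochondrial PMH2 gave 0.64. Members tied to rRNA processing gave 0.69 for RH36 and 0.66 for RH57. The mRNA export members UAP56b and UAP56a gave 0.48 and 0.35, and LOS4 gave -0.32. Among other named members the values were 0.64 for RH1, 0.58 for STRS2, 0.57 for STRS1, 0.38 for RH20 and -0.60 for DRH1, and RH27 itself had -0.53. Loci without a name had 0.88 (AT2G40700), 0.81 (AT5G60990), 0.68 (AT3G02065), 0.67 (AT5G63120), 0.65 (AT3G16840), 0.63 (AT5G63630), 0.56 (AT5G05450), 0.53 (AT5G51280), 0.53 (AT5G54910), 0.42 (AT3G06480), 0.37 (AT1G77030) and 0.29 (AT2G33730). The test for a single outlying sample was not applied to groups of 3.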

How the results depend on the processing

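Over the 5 comparisons, 3344 member values were recomputed under the alternatives: 3095 stayed on their side of the threshold with no called value turned, 169 lost a call, 72 gained one and 8 changed direction while called under at least 1 of the settings. Among those that stayed, 95 uncalled values changed sign. The fit over all 12 libraries called 10 members higher in shoot apices, beside 3. Leaving out a library gave 6 to 9 shoot falls (6 without rh27-2 shoot replicate 3), 2 shoot rises throughout, 35 to 37 root rises, 22 to 28 higher and 2 to 4 lower interaction calls, and 4 to 10 WT organ rises (4 without WT root replicate 1). For RH27 it gave -0.43 to -0.26 in shoot apices, -0.87 to -0.75 in root tips, -0.64 to -0.44 for the interaction and -0.45 to -0.27 between WT organs. Total-count scaling gave RH27 -0.41 in shoot apices and -0.30 for the interaction, 1 lower interaction call, and 37 higher and 8 lower members between rh27-2 organs. Between rh27-2 organs that scaling also turned RH20 to 0.29, AT3G06480 to 0.26, AT5G54910 to 0.31, AT2G47330 to 0.29, AT2G42520 to 0.0555, AT2G45810 to 0.0551, EIF4A1 to 0.23 and EIF4A-2 to 0.28, where all loci shifted by 0.33.

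With the replicate block, root tips kept 36 rises and 7 falls, and RH27 was at -0.80 there and -0.32 in shoot apices (edgeR adjusted p = 0.0806). The block gave 3 rises and 8 falls in shoot apices, 26 higher and 3 lower interaction calls, 8 higher and 23 lower members between WT organs, and 18 higher and 12 lower between rh27-2 organs. Outside shoot apices the numbers are not taken to pair samples, and the block changed 4 interaction calls, 1 between WT organs and 3 between rh27-2 organs. Depth limits AT1G71370, AT3G09620 and AT4G33370, the last 2 with 8 counts and 1 count in all libraries together.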
